A study of Homo sapiens with 12 samples.

Results

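The complement genes described here are 9 genes, CFB, CFI, C3, C1R, C1S, SERPING1, CD46, CD55 and CD59, out of 58174 Ensembl gene identifiers measured. They were chosen by symbol with their own values in these libraries already known, so their differences between resistant and sensitive cells are given as a description and without a p-value. mRNA was measured in the established human glioblastoma lines U-87 MG (U87) and U-118 MG (U118), in 3 libraries labelled sensitive and 3 labelled resistant for each line, 12 libraries in all. The study's methods describe cells depleted of the stem cell markers CD133 and CD15 and grown in serum with BMP2, a differentiation factor. Sensitive cells were the untreated controls, and resistant cells were the aggregates that formed after weeks in the alkylating drug temozolomide (TMZ) at 50 μM. All 4 groups therefore share the sorting and the BMP2, each cell line is an established line, and the labels do not say whether the replicates were separate cultures. The p-values given below for other genes then measure only the spread between these libraries. The lists of other genes were also chosen with earlier results of these data known, so these p-values are no independent support. Values are TPM, a level scaled for transcript length and for the library's total. TPM keep no read counts, so the sequencing depth is unknown and no detection limit could be computed.

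Complement is a cascade of plasma proteases best known as a product of the liver, although glial and tumour cells also transcribe parts of it. C1r and C1s are the proteases of the C1 complex that open the classical pathway, C3 is the central protein that all pathways cleave, and factor B supplies the protease of the alternative pathway. Hosts restrain it with the soluble proteins C1 inhibitor (SERPING1) and factor I (CFI), and at the cell surface with CD46, a cofactor for factor I, CD55, which dissociates the C3 convertases, and CD59, which blocks the membrane attack complex. Inflammatory cytokines are known to raise C3 and factor B transcription through NF-kappa B, C/EBP and STAT factors.

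The libraries labelled U118 resistant stood apart from their line, and this bears on every U118 result. Across 16382 genes, their Spearman rho with the U118 sensitive libraries lay between 0.808 and 0.839, against 0.895 to 0.909 with U87 sensitive and 0.907 to 0.913 with U87 resistant libraries. Of 44 genes at 10 TPM or more in all U87 sensitive libraries and under 0.1 TPM in all U118 sensitive libraries, 40, 38 and 38 were at 1 TPM or more in U118 resistant replicates 1, 2 and 3. Of 110 genes with the opposite pattern, 23, 18 and 16 were. The share of TPM from mitochondrially encoded genes was 13.2% in U118 resistant replicate 1 and 29.9% and 26.1% in replicates 2 and 3, against 7.42% to 19.7% in U118 sensitive, 12.9% to 16.9% in U87 sensitive and 22.2% to 23.7% in U87 resistant libraries. What made these libraries resemble U87 was not tested, so a U118 difference below and a difference between the lines cannot be told apart, and the U87 levels are given beside it.

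**Figure D1:**
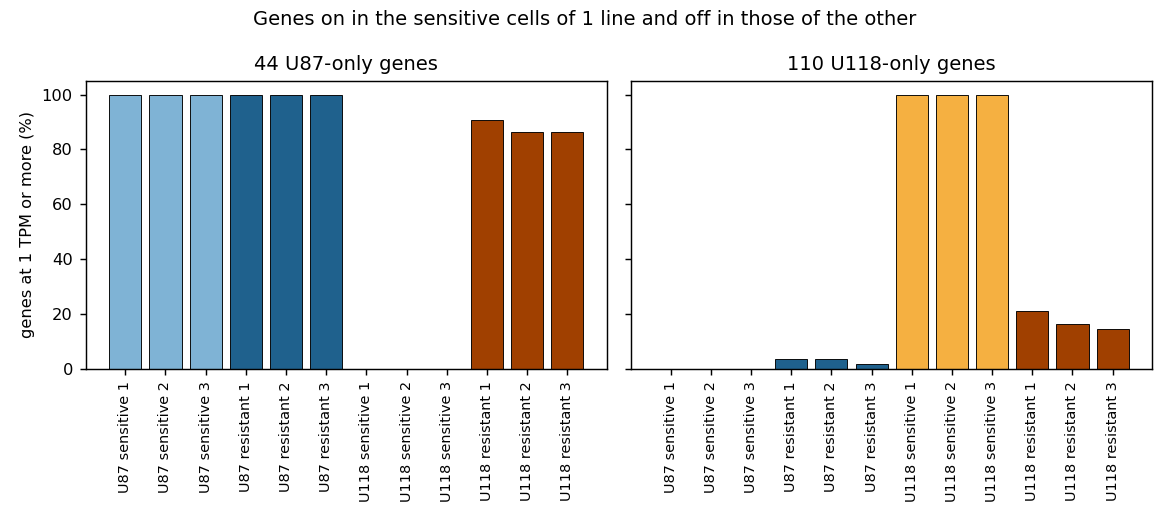
Percentage of genes at 1 TPM or more in each of the 12 libraries, for 44 genes on in U87 sensitive and off in U118 sensitive cells (left) and 110 genes with the opposite pattern (right), so that the bars of the sensitive groups are set by the choice of genes. The libraries labelled U118 resistant had 40, 38 and 38 of the 44 U87 genes and 23, 18 and 16 of the 110 U118 genes.

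The cells' identity was checked with marker lists. Of the hepatocyte markers, all 6 stayed under 1 TPM in every library, with summed levels of at most 0.382 TPM. The microglial markers AIF1, TYROBP and P2RY12 were listed at 0 in all 12 libraries and PTPRC reached at most 0.0689 TPM. Of the 8 macrophage and microglia markers 6 stayed under 1 TPM in every library, while CD68 and CSF1R moved with the groups. CSF1R, a receptor of macrophages, rose in U118 from 1.43, 1.41 and 1.34 TPM to 15.1, 9.95 and 9.47 TPM, a log2 difference of 2.36 (SE 0.25, limma adjusted p = 7.57e-05), and was at 5.47 to 6.75 TPM over both U87 groups. CD68, a lysosomal protein, was at 284.6 to 337.7 TPM in U87 sensitive and 201.2 to 240.4 TPM in U87 resistant libraries, which did not overlap, whereas the U118 groups did. The summed level of the 8 markers went from 292–344 to 207–247 TPM in U87 and from 172–318 to 311–389 TPM in U118. GFAP, a defining astrocyte marker, lay between 0.168 and 0.693 TPM and AQP4 was listed at 0 throughout, whereas VIM ranged from 4425 to 7149 TPM. Of the other 5 astrocytic and glioma markers, S100B reached at most 0.281 TPM, and 4 did not overlap between the U118 groups. NES went from 5.76–7.57 to 10.4–24.1 TPM, OLIG2 from at most 0.0524 to 0.570–1.05 TPM, CD44 from 730–868 to 354–566 TPM and SOX2 from 0.328–0.550 to 0.0253–0.0590 TPM. In U87, NES (7.30–8.34 to 10.95–12.003 TPM), CD44 (311–376 to 401–480 TPM) and VIM were higher in every resistant library, OLIG2 overlapped at 1.45 to 4.45 TPM, and SOX2 was listed at 0. The list summed to 5029–5060 and 5444–6406 TPM in U87 and to 6738–6962 and 4800–7741 TPM in U118. Summed fibroblast markers moved with the groups, from 229–235 to 425–508 TPM in U87 and from 933–1160 to 243–570 TPM in U118. At an adjusted p under 0.05 and a log2 difference of at least 1 in size, limma called 3 of the 4 tested higher in U87 (4 under median-ratio scaling) and 0 lower. In U118 it called 0 higher and 4 of 5 lower (3 under median-ratio scaling). Of all genes tested, 3.03% were called higher in U87 and 26.6% lower in U118. DCN went in U118 from 39.6, 32.9 and 38.8 TPM to 1.06, 0.282 and 0.224 TPM, beside at most 1.94 TPM in U87. The 5 endothelial markers summed to little but moved too, from 3.49–3.90 to 1.87–3.23 TPM in U87 and from 5.26–5.52 to 1.47–2.62 TPM in U118. Of these KDR, a receptor for VEGF, fell in U118 from 1.08, 1.11 and 1.51 TPM to 0.0276, 0.0661 and 0.0820 TPM, below every U87 library (1.02 to 3.40 TPM). The log2 difference of KDR was -1.07 (SE 0.16, limma adjusted p = 0.000578), or -0.55 relative to the median of all genes. Under median-ratio scaling KDR was no longer called. In U118 it reached 1 TPM only in the sensitive libraries, which alone brought it into the test. The part of these lists in the results below was not tested.

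Promoter sequence was available for 6 of the 9 members, in windows of 300 bases from RefSeq (GRCh38.p14) that run from 250 bases before to 50 after a transcript start. The window of CFB is shown because this gene differed in opposite directions in the 2 lines, that of CFI because it reached 1 TPM in U87 libraries alone, and that of CD55 because it was lower in the resistant libraries of both lines. Capitals mark matches, on either strand, to GGGNNNNNCC (NF-kappa B), TTCNNNGAA (STAT), TTGCNNAA (C/EBP), GAAANNGAAA (the interferon-stimulated response element, ISRE) or ACGTG (HIF), and overlapping matches run together. They lie at chr6:31945845-31946144 (plus strand), chr4:109801950-109802249 (minus strand) and chr1:207321428-207321727 (plus strand), and are written 5′ to 3′.
CFB: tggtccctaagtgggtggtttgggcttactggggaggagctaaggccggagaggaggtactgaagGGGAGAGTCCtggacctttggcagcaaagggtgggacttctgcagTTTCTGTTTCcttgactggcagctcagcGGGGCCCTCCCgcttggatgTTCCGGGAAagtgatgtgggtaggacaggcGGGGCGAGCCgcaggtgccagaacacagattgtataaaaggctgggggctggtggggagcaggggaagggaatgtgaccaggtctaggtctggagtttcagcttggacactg
CFI: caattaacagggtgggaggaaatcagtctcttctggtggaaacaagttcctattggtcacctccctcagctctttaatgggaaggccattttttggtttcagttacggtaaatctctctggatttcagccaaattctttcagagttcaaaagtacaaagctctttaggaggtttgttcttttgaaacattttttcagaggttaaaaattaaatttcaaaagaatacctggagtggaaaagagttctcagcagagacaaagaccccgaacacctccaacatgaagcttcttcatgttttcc
CD55: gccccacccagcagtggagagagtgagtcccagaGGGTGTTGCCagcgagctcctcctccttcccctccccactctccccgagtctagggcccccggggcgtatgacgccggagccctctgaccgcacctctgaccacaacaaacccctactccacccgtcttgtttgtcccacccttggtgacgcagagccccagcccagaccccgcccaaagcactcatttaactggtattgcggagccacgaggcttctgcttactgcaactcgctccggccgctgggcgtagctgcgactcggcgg

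The CFB window held NF-kappa B matches at 4 positions, counted as distinct starts, 1 STAT match from -92 to -84 relative to the transcript start, and 1 ISRE match from -140 to -131, but no C/EBP or HIF match. The CFI window held none of the 5 motifs, and the CD55 window held 1 NF-kappa B match from -216 to -207. Among all 35116 RefSeq windows, 58.7% held the NF-kappa B letters, 7.66% the STAT letters, 10.5% the C/EBP letters, 3.57% the ISRE letters and 21.4% the HIF letters. The NF-kappa B letters are thus common, and the ISRE letters rare, in windows of this length. A match describes the sequence only.

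The question asked of each line was how the 9 genes differed between resistant and sensitive cells. In U87, the mean C3 level in resistant cells was 9.72 times that in sensitive cells, 6 members including C3 had higher levels in every resistant library than in any sensitive one, and CD55 alone was lower in every resistant library. These are 7 of 9 members whose groups did not overlap, where 53.4% of 13845 genes tested did not. In U118, the mean C3 level was 55.1 times as high in the libraries labelled resistant, while CFB, C1S and CD55 were lower in all 3 than in any sensitive library. With C3 these are 4 of the 7 members that passed the filter on low values (1 TPM in at least 3 of 6 libraries), where the groups did not overlap for 58.6% of 15527 genes. Since the members were selected on these contrasts, nothing is read from these counts. Differences are given as log2 differences, resistant minus sensitive, on log2(TPM + 1), with the standard error (SE) from limma. The median over all genes tested was -0.24 in U87 and -0.52 in U118, and a difference relative to it is given where the reading changes. In such bulk libraries fewer cells of a kind and less RNA per cell cannot be told apart.

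**Figure D2:**
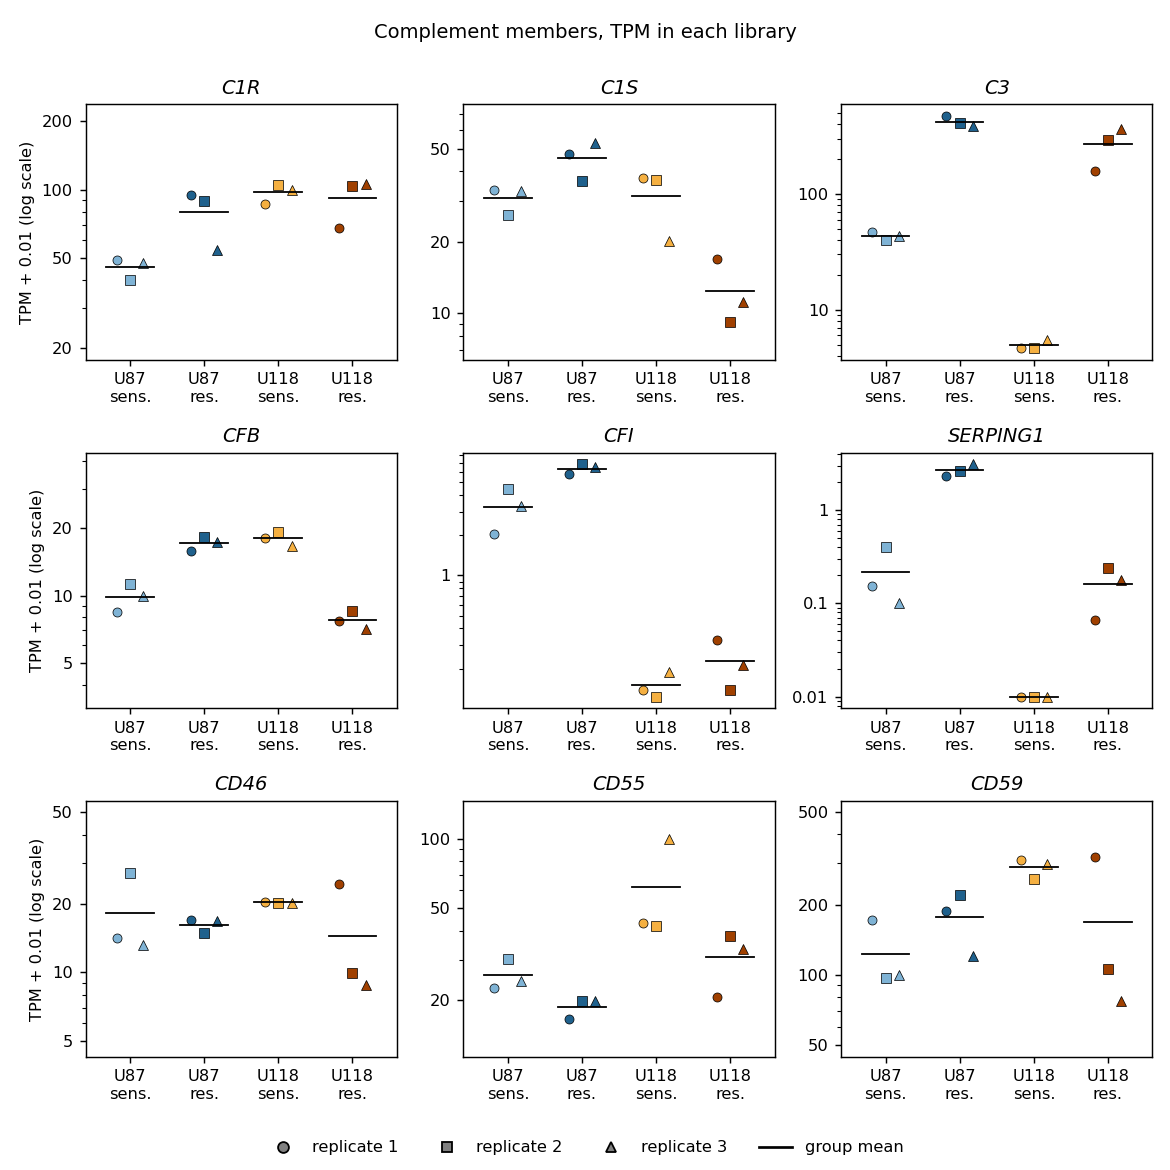
TPM plus 0.01 on a log axis for each of the 9 genes in the 12 libraries, with markers for replicates 1 to 3 and a line at each group mean (SERPING1 at 0.01 in U118 sensitive cells stands for a listed 0). C3 lay at 40.0 to 47.0 TPM in U87 sensitive and 384.6 to 471.5 TPM in U87 resistant libraries, and at 4.64 to 5.46 TPM in U118 sensitive and 159.5 to 365.8 TPM in the libraries labelled U118 resistant.

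C1R (ENSG00000159403, chr12:7080199-7092607, minus strand) and C1S (ENSG00000182326, chr12:6988259-7071032, plus strand) encode the C1 proteases and lie 9166 bases apart. C1R was at 49.0, 40.0 and 47.5 TPM in U87 sensitive and at 94.3, 89.4 and 54.2 TPM in U87 resistant libraries. All resistant libraries were above the sensitive ones, replicate 3 by little, with means of 45.5 ± 4.80 and 79.3 ± 21.9 (SD, n = 3) and a log2 difference of 0.75 (SE 0.21). In U118, C1R was at 86.9, 105.2 and 99.9 TPM in sensitive and at 67.6, 103.5 and 105.6 TPM in resistant libraries. These groups overlapped, and the log2 difference of -0.10 (SE 0.23) changed sign under median-ratio scaling (0.46), without mitochondrially encoded genes, without resistant replicate 1 (0.11), and against U87 sensitive libraries (0.98).

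C1S stood at 33.2, 26.1 and 32.9 TPM in U87 sensitive and at 47.4, 36.3 and 53.0 TPM in U87 resistant libraries. Again no resistant library fell into the sensitive range, and the log2 difference was 0.54 (SE 0.17). In U118 the order was turned round, with 37.4, 36.8 and 20.3 TPM in sensitive and 17.0, 9.20 and 11.1 TPM in resistant libraries. Every resistant library was lower, with a log2 difference of -1.27 (SE 0.32), or -0.74 relative to the median of all genes. The ratio of C1R to C1S, whose products act as one complex, was 1.44 to 1.53 in U87 sensitive and 1.02 to 2.47 in U87 resistant libraries. In U118 it was 2.32 to 4.92 in sensitive libraries, above the U87 sensitive range, and 3.98, 11.3 and 9.50 in resistant replicates 1, 2 and 3. The C1S gene model shares 9170 bases with EMG1 on the same strand (24.8 to 60.4 TPM) and 30252 bases with LPCAT3 on the other strand (23.6 to 86.0 TPM), and C1R shares 3021 bases with C1RL. The strand setting of the quantification is not given in the sources used here, so reads in the shared stretches may be split between these genes.

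C3 (ENSG00000125730, chr19:6677704-6730562, minus strand) was at 47.0, 40.0 and 43.5 TPM in U87 sensitive and at 471.5, 411.4 and 384.6 TPM in U87 resistant libraries. The groups were far apart, with means of 43.5 ± 3.49 and 422.5 ± 44.5 TPM (SD, n = 3), a ratio of 9.72 and a log2 difference of 3.25 (SE 0.10). In U118, C3 was at 4.69, 4.64 and 5.46 TPM in sensitive and at 159.5, 289.9 and 365.8 TPM in resistant libraries. The ratio of means was 55.1 and the log2 difference 5.44 (SE 0.30), with resistant replicate 1 the lowest of its group and a value of 5.79 without it. The 2 lines started from unlike levels, since C3 in U118 sensitive cells was below every U87 library. Set against U87 sensitive libraries instead, the libraries labelled U118 resistant were higher by 2.54 and still did not overlap with them, and they were lower than every U87 resistant library. C3 shares 649 bases on the same strand with GPR108, which was at 55.4 to 89.8 TPM.

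C3 made up a larger part of the 9 genes in resistant cells. Its share of their summed TPM was 13.5% to 15.9% in U87 sensitive and 50.2% to 56.9% in U87 resistant libraries. In U118 the share was 0.899% to 0.972% in sensitive libraries and 25.8%, 51.3% and 60.0% in resistant replicates 1, 2 and 3. Among all genes, C3 ranked 2981 to 3739 by TPM in U87 sensitive and 246 to 295 in U87 resistant libraries. In U118 it ranked 10704 to 11224 in sensitive libraries and 931, 376 and 300 in resistant ones. The summed TPM of the 9 genes was 274.1 to 347.5 in U87 sensitive and 675.8 to 858.6 in U87 resistant libraries, but 484.0 to 561.7 in U118 sensitive and 565.3 to 617.6 in U118 resistant libraries. In the libraries labelled U118 resistant the higher C3 level stood beside lower means of CD59 (288.5 in sensitive and 167.9 TPM in resistant libraries, which overlapped), CD55, C1S and CFB.

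CFB (ENSG00000243649, chr6:31945650-31952084, plus strand), the gene of factor B whose window is shown above, was at 8.45, 11.2 and 10.003 TPM in U87 sensitive and at 15.8, 18.2 and 17.3 TPM in U87 resistant libraries. The means were 9.90 ± 1.39 and 17.1 ± 1.21 TPM (SD, n = 3), without overlap, for a log2 difference of 0.74 (SE 0.14). In U118 the levels were 18.1, 19.3 and 16.7 TPM in sensitive and 7.67, 8.53 and 7.07 TPM in resistant libraries. Here the resistant libraries were all lower, at means of 18.1 ± 1.27 and 7.75 ± 0.736 TPM, for a log2 difference of -1.12 (SE 0.22), which was -0.60 relative to the median of all genes. C3 and CFB, partners in the alternative pathway convertase, thus differed in the same direction in U87 and in opposite directions in U118. The ratio of C3 to CFB was 3.56 to 5.56 in U87 sensitive and 22.2 to 29.8 in U87 resistant libraries, and 0.240 to 0.326 in U118 sensitive and 20.8 to 51.8 in U118 resistant libraries. Against U87 sensitive libraries, the libraries labelled U118 resistant differed in CFB by -0.31 and overlapped with them. The CFB locus overlaps the end of C2 by 23 bases and shares 6399 of its 6435 bases with another gene model on its strand, AL645922.1, that reached at most 0.936 TPM.

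SERPING1 (ENSG00000149131, chr11:57597387-57614853, plus strand) encodes C1 inhibitor, which inactivates C1r and C1s. It was near 0 in U87 sensitive libraries, at 0.144, 0.387 and 0.0913 TPM, and reached 2.31, 2.63 and 3.07 TPM in U87 resistant libraries. The resistant libraries were all higher, and only through them did the gene pass the filter on low values. Its log2 difference was 1.61 (SE 0.16), and 3.86 with a pseudocount of 0.01 in place of 1. In U118 sensitive cells SERPING1 was listed at 0 in every library, against 0.0557, 0.228 and 0.169 TPM in resistant ones. Both U118 groups were under the filter, and no fold is given.

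CFI (ENSG00000205403, chr4:109740694-109802179, minus strand) encodes factor I, the protease that cleaves C3b with the help of CD46. It was at 2.04, 4.44 and 3.33 TPM in U87 sensitive and at 5.75, 6.81 and 6.47 TPM in U87 resistant libraries. The groups did not overlap, and the log2 difference was 0.82 (SE 0.23). In U118 CFI stayed under 1 TPM in every library, with 0.128, 0.113 and 0.179 TPM in sensitive and 0.317, 0.129 and 0.203 TPM in resistant libraries. CFI was thus a U87 transcript among these cells, and it remained at the U118 level in the libraries labelled U118 resistant, which were below every U87 library. CFI shares 61306 of its 61486 bases with AC126283.2 on the same strand, a gene model that has no value of its own here.

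The membrane regulators showed smaller differences than C3. CD55 (ENSG00000196352, chr1:207321376-207386804, plus strand), also called decay-accelerating factor, was at 22.6, 30.1 and 24.2 TPM in U87 sensitive and at 16.6, 19.8 and 19.8 TPM in U87 resistant libraries. The resistant libraries were all lower, by -0.43 on the log2 scale (SE 0.14), but by -0.18 relative to the median of all genes. In U118 it was at 43.3, 41.7 and 99.9 TPM in sensitive and at 20.7, 37.8 and 33.5 TPM in resistant libraries. Without sensitive replicate 3, the high library in which mitochondrially encoded genes also took 19.7% of TPM, the log2 difference of -0.91 (SE 0.37), or -0.38 relative to the median of all genes, became -0.50. The libraries labelled U118 resistant overlapped in CD55 with U87 sensitive libraries, at a difference of 0.22.

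CD46 (ENSG00000117335, chr1:207752057-207795513, plus strand), which lies 365252 bases from CD55, was at 14.1, 27.1 and 13.2 TPM in U87 sensitive and at 16.9, 14.9 and 16.8 TPM in U87 resistant libraries. The sensitive group spanned the resistant one, and the log2 difference of -0.08 (SE 0.26) became -0.22, 0.23 and -0.27 without sensitive replicates 1, 2 and 3 and 0.17 under median-ratio scaling, and it also turned positive without mitochondrially encoded genes. In U118 the sensitive libraries were nearly equal, at 20.3, 20.2 and 20.2 TPM. The resistant libraries were at 24.4, 9.91 and 8.83 TPM, so that replicate 1 was above and replicates 2 and 3 were below the sensitive range. The log2 difference was -0.60 (SE 0.35), or -0.08 relative to the median of all genes. It was -1.03 without resistant replicate 1, -0.43 without replicate 2 and -0.35 without replicate 3.

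CD59 (ENSG00000085063, chr11:33703010-33736491, minus strand), also called protectin, was the most abundant member in sensitive cells of both lines. It was at 171.0, 96.5 and 99.4 TPM in U87 sensitive and at 188.0, 220.2 and 120.5 TPM in U87 resistant libraries. These overlapped, at a log2 difference of 0.53 (SE 0.29), which was 0.80 without sensitive replicate 1 and 0.35 without resistant replicate 2. In U118 it was at 310.5, 256.1 and 299.0 TPM in sensitive and at 320.4, 106.1 and 77.2 TPM in resistant libraries. As with CD46, resistant replicate 1 was above the sensitive libraries and the other two were below them, at a log2 difference of -1.05 (SE 0.45), or -0.53 relative to the median of all genes. It was -1.66 without replicate 1 and -0.64 without replicate 3. The libraries labelled U118 resistant overlapped in CD59 with U87 sensitive libraries, at a difference of 0.23. CD59 shares 19458 bases with AL049629.2 on the same strand, which has no value of its own here.

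The median log2 difference was 0.74 over the 9 members in U87, where SERPING1 passed the filter through the resistant libraries alone, and -0.91 over the 7 in U118, beside medians of -0.24 and -0.52 over all genes tested. Under median-ratio scaling the member medians were 0.98 in U87 and -0.36 in U118, beside -0.02 and -0.05 over all genes tested. Since the members were selected on these contrasts, nothing is read from these medians.

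**Figure D3:**
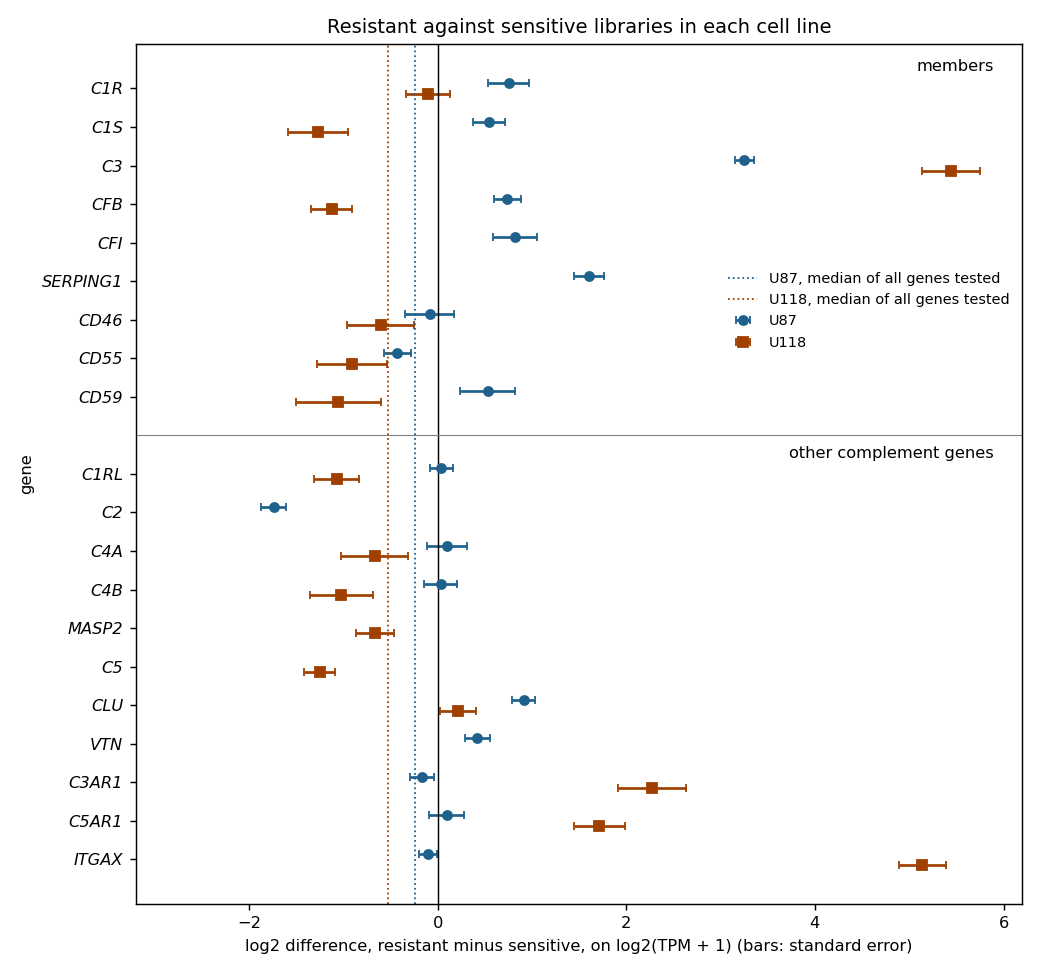
Log2 difference, resistant minus sensitive, on log2(TPM + 1) with its standard error, for the members (top) and the other complement genes that passed the filter (bottom), in U87 (circles) and U118 (squares). C3 lay at 3.25 and 5.44, and the dotted lines mark the medians of all genes tested, at -0.24 in U87 and -0.52 in U118.

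The rest of the complement system was followed in 46 further genes, 17 of activation, 7 of the terminal pathway, 10 soluble regulators, 3 membrane regulators and 9 receptors. Levels were mostly low, with 32 of the 46 under 1 TPM in all 12 libraries and 10 listed at 0 throughout, among them C1QA, C1QB and C1QC, which encode the recognition part of the C1 complex that C1R and C1S belong to. In each line 9 genes passed the filter, and a gene was called where the adjusted p was under 0.05 and the log2 difference at least 1 in size. In U87, limma with Benjamini-Hochberg adjustment over all genes called 0 higher (2 at an unadjusted p under 0.05) and 1 lower (C2), where 3.03% of all genes tested were called higher, 7.79% lower and 10.8% in either direction, and the median log2 difference of the 9 was 0.04. In U118, 3 were called higher (ITGAX, C3AR1 and C5AR1) and 3 lower (C5, C1RL and C4B), where 8.64% of all genes were called higher, 26.6% lower and 35.3% in either direction, and the median was -0.66. C2 in U87 and C5 in U118 passed the filter only through the sensitive libraries, and ITGAX and C5AR1 in U118 only through the resistant ones. For these genes, being tested was tied to the direction of the call.

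C2, the protease of the classical convertase, fell in U87 from 3.57, 3.67 and 4.11 TPM to 0.356, 0.442 and 0.501 TPM, a log2 difference of -1.74 (SE 0.13, limma adjusted p = 0.000171). It stayed under 1 TPM in all U118 libraries. C2 and CFB are neighbours and relatives, and in U87 they differed in opposite directions. In U118, C5, the first component of the terminal pathway, fell by 1.25 (SE 0.17, limma adjusted p = 0.000334) from 1.46, 1.44 and 2.02 TPM to 0.143, 0.1004 and 0.0759 TPM, beside 0.174 to 1.87 TPM over both U87 groups. C1RL, a relative of C1R, fell by 1.07 (SE 0.24, limma adjusted p = 0.00534), from 14.2, 16.6 and 16.1 TPM to 7.93, 5.41 and 7.59 TPM, beside 11.002 to 13.1 TPM in U87. C4B, which is almost identical to C4A, so that their reads may be split, had a log2 difference of -1.02 (SE 0.33, limma adjusted p = 0.0296), at 3.21, 1.72 and 0.893 TPM in sensitive and 1.04, 0.163 and 0.0987 TPM in resistant libraries, beside 1.15 to 1.999 TPM in U87. Its U118 groups overlapped, and the call was lost in 4 of 6 fits with a library left out (without sensitive replicate 1 or 2 or resistant replicate 2 or 3). The libraries labelled U118 resistant were below every U87 library in C5, C1RL and C4B. Relative to the median of all genes these differences were -0.73, -0.55 and -0.50, and under median-ratio scaling C1RL and C4B lost their calls, C1RL also without mitochondrially encoded genes and without resistant replicate 2.

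The receptors called higher in U118 were at or above their U87 levels in the libraries labelled resistant, or in some of them. ITGAX, the alpha chain of complement receptor 4, was at 0.327, 0.230 and 0.123 TPM in U118 sensitive and at 53.6, 35.1 and 39.6 TPM in libraries labelled U118 resistant, a log2 difference of 5.14 (SE 0.25, limma adjusted p = 1e-06). In U87 it was at 47.5, 41.8 and 47.9 TPM in sensitive and 45.2, 42.3 and 40.0 TPM in resistant libraries, so the libraries labelled U118 resistant had the U87 level. Its partner chain ITGB2 was near 0. C3AR1, the receptor for C3a, was at 1.78, 1.30 and 1.48 TPM in U118 sensitive and at 21.1, 8.59 and 7.40 TPM in U118 resistant libraries, a log2 difference of 2.27 (SE 0.36, limma adjusted p = 0.000921), and ranged from 10.2 to 13.7 TPM over both U87 groups. C5AR1, the receptor for C5a, rose in U118 by 1.71 (SE 0.27, limma adjusted p = 0.000865), to 4.68, 2.97 and 1.65 TPM, beside 1.72 to 2.65 TPM in U87. None of the 3 receptors was called in U87. The macrophage marker CSF1R moved with them in U118, and its part in this result was not tested.

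**Figure D4:**
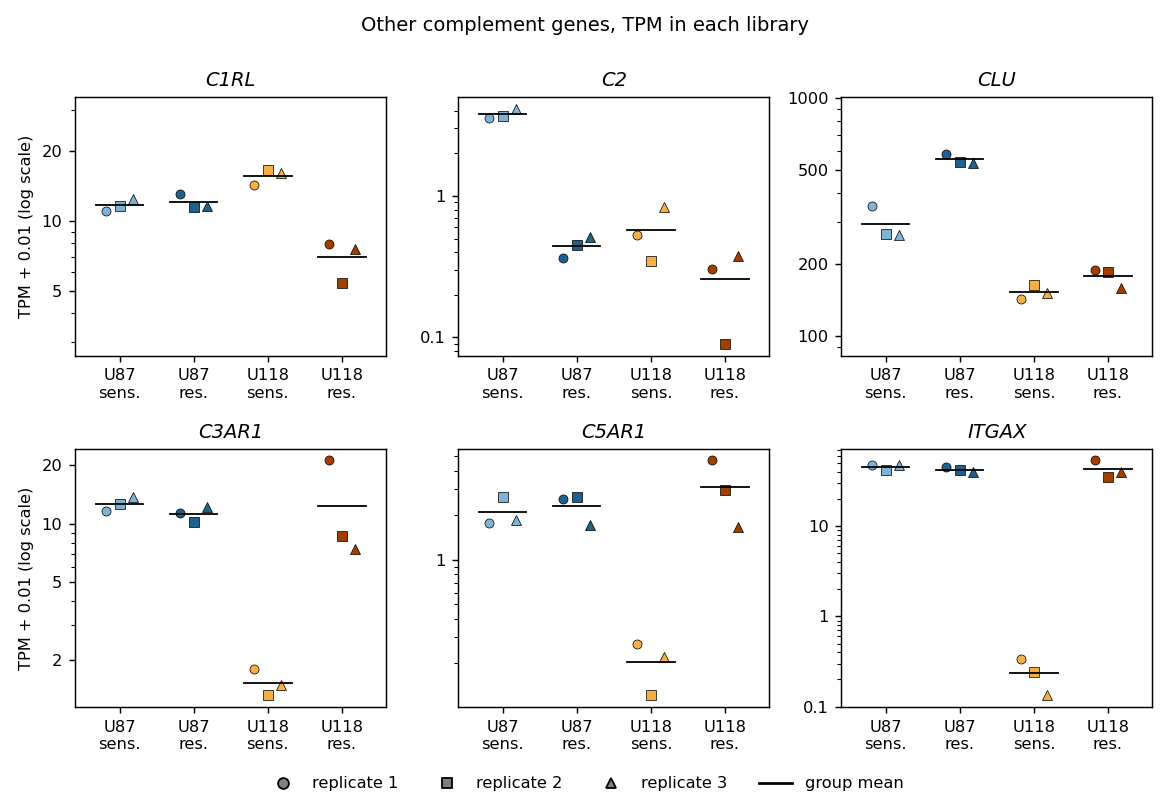
TPM plus 0.01 on a log axis for C1RL, C2, CLU, C3AR1, C5AR1 and ITGAX in the 12 libraries, with a line at each group mean. ITGAX lay between 35.1 and 53.6 TPM in both U87 groups and in the libraries labelled U118 resistant, and between 0.123 and 0.327 TPM in U118 sensitive libraries.

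CLU, whose product clusterin inhibits the membrane attack complex, was the most abundant of the 46. It was at 353.3, 269.0 and 265.7 TPM in U87 sensitive and at 584.3, 541.3 and 533.3 TPM in U87 resistant libraries. The log2 difference of 0.91 (SE 0.12, limma adjusted p = 0.00137) was under the fold required and passed it under median-ratio scaling, without mitochondrially encoded genes and without sensitive replicate 1. In U118 the difference was 0.22 (SE 0.19, limma adjusted p = 0.366). Of the 11 genes that could be compared between the lines, 7 differed in their change at an adjusted p under 0.05 (limma interaction), where 38.1% of 16382 genes did. Among the 7, C2 in U118 and MASP2 in U87 were under the filter on low values, where log2(TPM + 1) understates a change. Each was brought into this test by the sensitive libraries of the other line alone. Because the libraries labelled U118 resistant resemble U87, that test compares these groups of libraries as labelled.

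Transcripts of known upstream regulators were read for the same libraries, as a list of 12 cytokines and transcription factors. In U87, limma called 2 of 8 tested higher (4 at an unadjusted p under 0.05) and 0 lower (1 at an unadjusted p under 0.05, NFKB1), where 3.03% of all genes tested were called higher and 7.79% lower. IL1B, the cytokine interleukin 1 beta, was listed at 0 in all sensitive libraries and reached 2.96, 2.58 and 2.84 TPM in resistant ones (limma adjusted p = 0.000102). Only through the resistant libraries did it pass the filter on low values, so its being tested was tied to a higher level there. CEBPD, the transcription factor C/EBP delta, rose by 1.01 (SE 0.15, limma adjusted p = 0.00224), from 3.39–4.19 TPM to 7.59–8.84 TPM, and fell just short of the required fold without sensitive replicate 1 (0.97) or 3 (0.97) or resistant replicate 1 (0.97) or 2 (0.98). In U118, limma called 4 of 10 higher (4 at an unadjusted p under 0.05) and 0 lower (2 at an unadjusted p under 0.05, NFKB1 and STAT3), where 8.64% of all genes were called higher and 26.6% lower. IL1B went from 0.694, 0.329 and 0.927 TPM to 106.6, 73.0 and 94.6 TPM, a log2 difference of 5.81 (SE 0.26, limma adjusted p = 6.79e-07), well above every U87 library. IL6 (1.89), CEBPD (1.43) and IL1A (1.34) also rose. Here IL1B and IL1A passed the filter only through the resistant libraries, so the same limit holds for them. In U87 IL6 (0.382–0.531 to 0.894–1.64 TPM) and IL1A (at most 0.0846 to 0.680–1.03 TPM) were under the filter but higher in every resistant library. IL6 reached 6.44 to 9.54 TPM and IL1A 2.35 to 3.46 TPM in the libraries labelled U118 resistant, above every U87 library (at most 1.64 and 1.03 TPM). CEBPD went from 2.71–2.97 to 5.63, 12.1 and 11.7 TPM, a range that holds the U87 resistant one. NFKB1, which encodes a subunit of NF-kappa B and is named after its values were seen, was at 24.9, 25.3 and 31.6 TPM in U87 sensitive and at 17.3, 13.2 and 16.6 TPM in U87 resistant libraries, a log2 difference of -0.76 (SE 0.15, limma adjusted p = 0.00759). In U118 it was at 25.8, 24.8 and 20.6 TPM in sensitive and at 17.0, 12.8 and 12.5 TPM in resistant libraries, a log2 difference of -0.72 (SE 0.23, limma adjusted p = 0.0262). Every resistant library was lower in both lines, but the fold required was not reached, and relative to the median of all genes the differences were -0.51 and -0.20. STAT3, a transcription factor of interleukin 6 signalling also named after its values were seen, differed the other way in U87, from 30.5, 27.5 and 29.99 TPM to 49.7, 46.3 and 48.0 TPM, without overlap and again under the fold required (log2 difference 0.69, SE 0.09, limma adjusted p = 0.00123). In U118 its log2 difference was -0.60 (SE 0.25, limma adjusted p = 0.0698), or -0.08 relative to the median of all genes. HIF genes were not part of the list, and no relation between these transcripts and C3 was tested.

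Set beside all 4 groups, the libraries labelled U118 resistant were nearest in mean level to U118 sensitive libraries for 3 of the 9 members, to U87 sensitive for 4 and to U87 resistant for 2. Of these placements, C1S was about as far from U118 sensitive (1.27) as from U87 sensitive libraries (1.28), and SERPING1 was placed by levels near 0. Small gaps also placed CD46 (0.30 from U87 resistant, 0.38 from U87 sensitive) and CD59 (0.23 from U87 sensitive, 0.31 from U87 resistant). C1R was 0.10 from U118 sensitive and 0.23 from U87 resistant libraries. For CD46, CD59 and C1R the libraries overlapped with both groups named, so these placements are undecided. Of 11 other complement genes, 2 were nearest to U118 sensitive, 4 to U87 sensitive and 5 to U87 resistant libraries. The mean size of the log2 difference over the members was 1.20 from U118 sensitive, 0.86 from U87 sensitive and 1.04 from U87 resistant libraries. Over all genes it was 0.93, 0.58 and 0.56. CFI was at the U118 level, C3 between the U87 groups, and C1S below both lines' sensitive libraries.

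The genes most like each member were looked for among 8210 genes over the 12 libraries, by Pearson's r of log2(TPM + 1), as a description of libraries that fall into 4 groups. For C3 they were FADS3 (r = 0.992) and NRP2 (r = 0.977), for CFB ANKRD13B (r = 0.961) and METTL22 (r = 0.953), and for CFI IRX3 (r = 0.978) and ABCC2 (r = 0.973). For C1S they were ID3 (r = 0.960) and DCTN2 (r = 0.958), for C1R R3HDM2 (r = 0.908) and CXXC1 (r = 0.902), and for SERPING1 SCG2 (r = 0.959) and PLD3 (r = 0.941). For CD46 they were TMEM59 (r = 0.949) and ATP6V1A (r = 0.945), for CD55 KMT2E (r = 0.962) and ATXN2 (r = 0.952), and for CD59 MARS1 (r = 0.925) and CHEK2 (r = 0.918). CFI and SERPING1 were under that mean and could not be named as a like gene. None of the other members was among the pair most like another member, and C1R and C1S, neighbours on chromosome 12, had different genes beside them.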

How the data were processed

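The authors deposited TPM per gene, 1 table for each line with 6 libraries, made from mRNA libraries of total RNA. The submitters' processing notes name FastQC 0.11.2, Trimmomatic 0.36, HISAT2 2.0, bedtools 2.26.0 and GRCh38, and the tool and annotation behind the TPM are not given in the sources used here. Of 58174 identifiers, 57836 are in GENCODE release 29, whose positions are printed. No value column was unused.

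Groups and replicates were taken from the labels. log2(TPM + 1) was fitted with limma 3.58.1 in R 4.3.3 (eBayes with trend) in each line, over genes with 1 TPM in at least 3 of 6 libraries, and the difference between lines as an interaction over 12 libraries. Fold changes are on this scale, which understates the change of low genes. Genes were called where the p adjusted by Benjamini-Hochberg was under 0.05 and the log2 difference reached 1 in size. The fit was tested on simulated data, and no result of that test is given or used here. An exact permutation test of 3 against 3 libraries cannot go below p = 0.1 and was not used. The members and gene lists were chosen with earlier results of these data known. By rule, the genes named are the members, other complement genes that were called or had a mean of at least 10 TPM in a group, and the 2 genes most like each member. Markers, upstream regulators, overlapping genes and further complement genes (C1QA, C1QB, C1QC, ITGB2, C4A and MASP2) are named outside it, after their values were seen. Some genes are not reported here and were left out of the lists and their counts. Alternatives were pseudocounts of 0.1 and 0.01, other filters, median-ratio scaling, TPM without mitochondrially encoded genes, eBayes without trend, a replicate block, no fold threshold and leaving out each library. Setting the libraries labelled U118 resistant against U87 sensitive libraries was chosen after seeing the data and carries no test. The lines were deposited as separate tables, and whether these were normalized together is not given in the sources used here. Figures were drawn with matplotlib 3.10.9.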

Additional observations from a re-analysis of the deposited data

Results flagged for a closer look

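The change from sensitive to resistant differed between the lines, by the limma interaction over 12 libraries, for 7 of 11 other complement genes. Over all genes 38.1% of 16382 differed. C2 in U118 and MASP2 in U87 were under the filter on low values, and only the sensitive libraries of the other line brought each into this test. As U118 minus U87 on the log2 scale, the difference was 5.24 for ITGAX, 2.44 for C3AR1, 1.62 for C5AR1 and 1.42 for C2, and it was -1.11 for C1RL, -0.69 for CLU and -0.66 for MASP2. MASP2, a protease of the lectin pathway, was at 1.23 to 1.41 TPM in U118 sensitive libraries and at 0.896, 0.257 and 0.285 TPM in those labelled resistant, beside 0.225 to 0.486 TPM in U87.

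Among the members, every resistant library of one line moved opposite to every one of the other for CFB (-1.86) and C1S (-1.81), and this difference was not tested. All of these values rest on the libraries labelled U118 resistant, which resemble U87.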

How the results depend on the processing

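Over 213 recomputed member differences, 195 moved by less than the spread between replicates and 18 by more, and 9 changed sign, in 4 of 16 pairs of gene and line (C1R, CD55 and CD59 in U118 and CD46 in U87). For CD55 and CD59 this was with U87 sensitive libraries as the reference, chosen after seeing the data, at 0.22 and 0.23. Genes called in U87 (419 higher, 1078 lower) were 175 and 630 with a mean of at least 10 TPM, 659 and 543 under median-ratio scaling, and 1306 and 4107 with no fold threshold. In U118 (1341 higher, 4134 lower) they were 536 and 2152 with a mean of at least 10 TPM and 2284 and 2025 under median-ratio scaling. Other complement genes called higher by limma in U87 (0, with 2 at an unadjusted p under 0.05) were 1 under median-ratio scaling and without mitochondrially encoded genes, 2 with no fold threshold and 0 to 1 with a library left out (CLU, without sensitive replicate 1). Those called lower in U87 (1) were 0 at a mean of at least 10 TPM. In U118, the 3 called higher were 1 at that filter, and the 3 called lower were 1 at that filter, 1 under median-ratio scaling and 1 to 3 with a library left out, C4B and C1RL being lost without resistant replicate 2 and C4B without sensitive replicate 1 or 2 or resistant replicate 3. C4B was also lost with no filter and C1RL without mitochondrially encoded genes, and MASP2 was gained as lower at pseudocounts of 0.1 and 0.01. By the same rule, which is no test of genes chosen on these contrasts, C3 and SERPING1 passed in U87 and C3, C1S and CFB in U118. Of all genes tested 10.8% passed in U87 and 35.3% in U118, and nothing is read from the members that passed. SERPING1 passed the filter on low values only through the U87 resistant libraries. In U87, CFI was added at a pseudocount of 0.01, under median-ratio scaling and without sensitive replicate 2, C1R was added under median-ratio scaling and without resistant replicate 3, and SERPING1 was not tested with a mean of at least 10 TPM. In U118, CFB was lost without mitochondrially encoded genes, CFB and C1S under median-ratio scaling, and C1S without sensitive replicate 1 or 2, while CD59 was added with the replicate block and CD59 and CD46 without resistant replicate 1. With the stricter filter fewer genes are tested. The median rho of the libraries labelled U118 resistant fell with it to 0.829 with U87 sensitive, 0.837 with U87 resistant and 0.715 with U118 sensitive, in the same order. For the other changes the cause was not tested. Same-numbered libraries did not deviate together throughout (r of -0.067 to 0.011 for U87, and r of 0.051 to 0.139 for U118, whose libraries all correlated best with their own number). With the replicate block, 414 genes were called higher and 1040 lower in U87 and 1363 and 4218 in U118, and the 1 and 6 other complement calls were kept. TPM without counts leave the error of low genes such as SERPING1 unknown.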
